A study of Mus musculus with 15 samples.

Results

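The miR-200 family comprises the microRNAs mmu-miR-200a, mmu-miR-200b, mmu-miR-200c, mmu-miR-141 and mmu-miR-429. Its assays were found by name on TaqMan low density array cards, after removal of the species prefix and the assay number, with either arm of the hairpin accepted. Of 584 miRNA assays, 9 belonged to the family: the guide arms of all 5 members, each in a single well of card A, and the passenger arms miR-141*, miR-200a*, miR-200b* and miR-200c*, each in duplicate wells of card B. Real-time PCR was run on total RNA of 15 samples, 3 for each of 5 conditions. αTC1-6, a mouse glucagonoma line used as a model of pancreatic α cells, was grown for 24 or 48 h without treatment, or for the same times with 50 IU/ml IL-1β, 1000 IU/ml IFN-γ and 1000 IU/ml TNF-α. βTC1, a mouse insulinoma line used as a model of β cells, was grown untreated for 24 h and was not treated with cytokines in these samples. Both are tumour lines, so that α and β cells are each represented by 1 transformed line, and a change in level per cell and a change in the share of cells that express a miRNA cannot be told apart.

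The family is best known as a guardian of the epithelial state. Its members bind the mRNAs of the transcription repressors ZEB1 and ZEB2, which silence E-cadherin, and the ZEB proteins in turn repress transcription of both miR-200 clusters. In the pancreas the family is expressed in endocrine cells, and in mouse β cells it has been tied to apoptosis under stress.

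The members can be ordered by their place in the genome or by their seed, the stretch of bases 2 to 8 that pairs with target mRNAs, and the orders differ. In RefSeq (build GRCm38.p6), miR-200b, miR-200a and miR-429 are transcribed in that order from the minus strand of chromosome 4, from hairpins at chr4:156055681-156055750, chr4:156054896-156054985 and chr4:156053905-156053987. These lie within 1846 bases, inside the annotated span of the lncRNA gene Gm13648. MiR-200c and miR-141 come from the minus strand of chromosome 6, from hairpins at chr6:124718322-124718390 and chr6:124717914-124717985, within 477 bases between the protein-coding genes Phb2 and Ptpn6. The guide arms are shown because all comparisons below turn on them, with the seed in capitals. A first group of 3 shares one seed across both clusters:

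miR-200b-3p: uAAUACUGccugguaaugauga

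miR-429-3p: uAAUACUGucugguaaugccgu

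miR-200c-3p: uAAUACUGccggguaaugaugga

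The other 2 members, again 1 from each cluster, share a seed that differs from the first by the single substitution C4U (miR-200a first, miR-200b second, position counted from the 5′ end):

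miR-200a-3p: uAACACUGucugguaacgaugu

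miR-141-3p: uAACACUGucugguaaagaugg

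MiR-200a and miR-141 were equal at 20 of 22 bases and differed by A17C and G22U (miR-141 first). MiR-200b and miR-200c were also equal at 20 of 22 bases and differed by U11G and A22G (miR-200b first). How far the assays of such close sequences also read each other was not tested. The passenger arms with an assay are the 5p strands of 4 hairpins, and those of miR-200a and miR-200b share a seed:

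miR-200a-5p: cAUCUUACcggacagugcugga

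miR-200b-5p: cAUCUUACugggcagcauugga

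miR-141-5p: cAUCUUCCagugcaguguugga

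miR-200c-5p: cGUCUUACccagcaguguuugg

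Levels are given as ΔCt, the cycle at which the assay crossed its threshold (Ct) less the cycle of the reference miR-26a in that sample. One cycle is 1 unit on the log2 scale, and a lower ΔCt is a higher level. Differences between conditions are log2 differences in level, the first condition minus the second, so that a positive value is a higher level in the first. MiR-26a itself crossed at 16.97 to 18.98 cycles. The islet miRNA miR-375 was above miR-26a in every sample, with a ΔCt of -4.44 to -4.12 in βTC1 and of -4.04 to -2.65 in untreated αTC1-6 of 24 h. Of the exocrine markers miR-216a, miR-216b and miR-217, none had a Ct in the normalized values of αTC1-6 at 24 h, whereas all 3 had one in each βTC1 sample. In the non-normalized values each had a Ct in 1 untreated αTC1-6 sample of 24 h, and miR-216b in 2 treated ones. At 48 h miR-216b had a Ct in all 3 untreated αTC1-6 samples, and miR-216a and miR-216b each in 1 treated sample, in both sets of values.

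The deposited tables disagree on the family. The normalized table gives 49 of the 75 guide-arm wells a Ct, and lists the others at the undetermined value that corresponds to a Ct of 40. The non-normalized table of the same wells gives 74 of 75 a Ct. All 25 wells with a Ct only in the non-normalized table came from samples of 24 h, 21 of them from αTC1-6. MiR-200a, miR-200b and miR-429 were each undetermined in the normalized values of all 6 αTC1-6 samples of 24 h and had a Ct in the non-normalized values of all 6. The same was found for 13 assays of card A (3.47% of them), so that 3 of these 13 were the whole chromosome 4 cluster. Over card A, between 60 and 86 wells per sample changed in this way at 24 h and between 0 and 1 at 48 h. The non-normalized Ct of the changed family wells in αTC1-6 lay between 24.0 and 32.0, with a median of 28.2, against 25.2 to 34.4, with a median of 28.0, for the kept wells of miR-200a, miR-200b and miR-429 at 48 h. The plant miRNA ath-miR159a, which serves as a negative control, also had a Ct on card A in 5 of 9 samples of 24 h in the non-normalized values (17.1 to 31.8) and in 0 of 9 in the normalized values, while in the 6 samples of 48 h it had one of 16.3 to 33.0 there in both tables. On card B, which carries the passenger arms, the normalized table gave it a Ct in 7 of 9 samples of 24 h (4.57 to 31.1) and in 5 of 6 of 48 h (22.7 to 33.9). Why these wells were set to undetermined was not tested, and each result is therefore given from both tables. The normalized table, with undetermined wells at a Ct of 40, is the one meant unless the other is named.

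**Figure D1:**
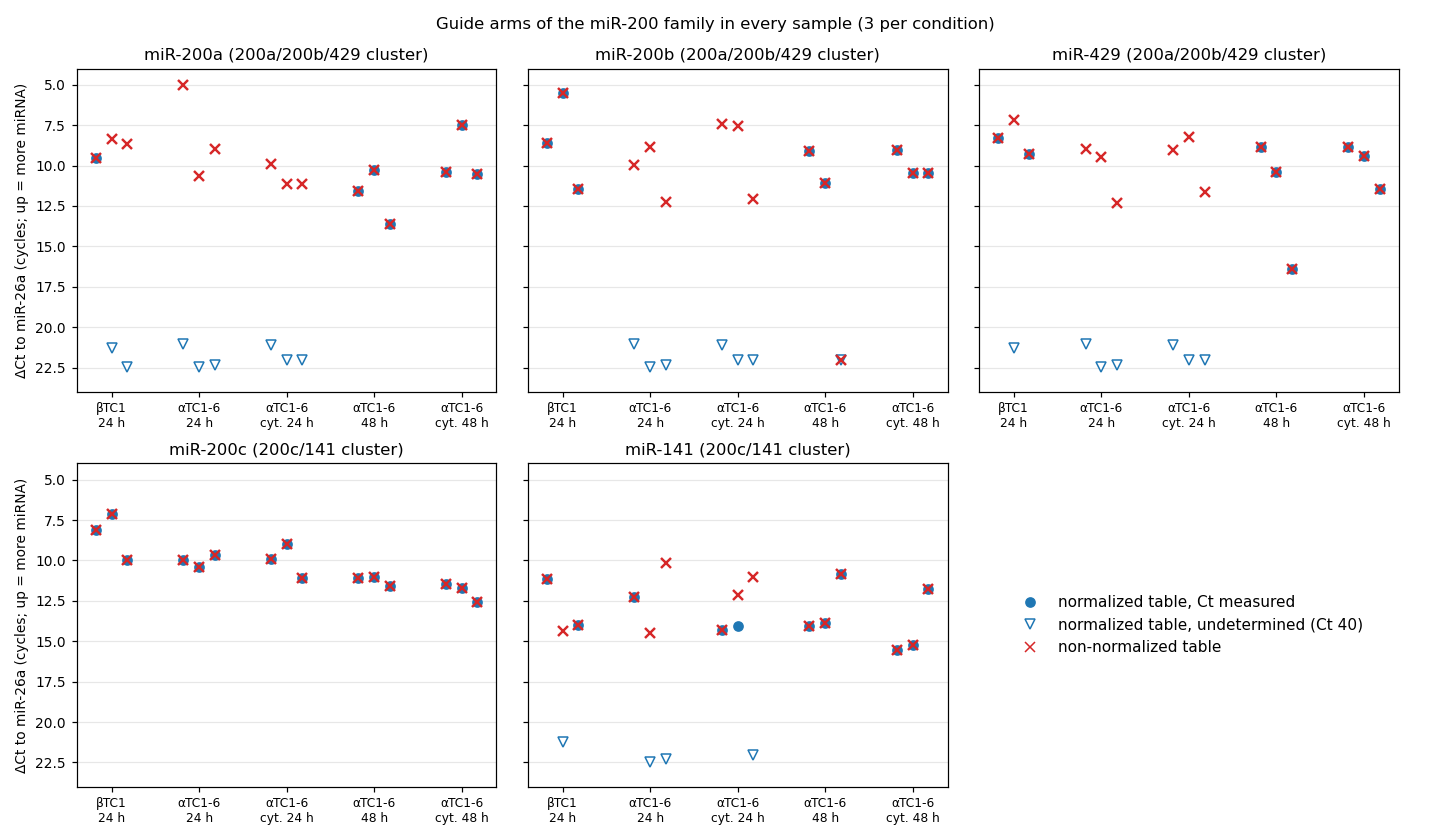
ΔCt to miR-26a (cycles, axis inverted so that up is more miRNA) of each guide arm in every sample, with 3 samples for each of 5 conditions. Filled circles are measured wells and open triangles undetermined wells of the normalized table, and crosses are the non-normalized table. For miR-200a, miR-200b and miR-429 all 6 αTC1-6 samples of 24 h are triangles, whereas miR-200c has a circle under each cross.

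Mmu-miR-200c was the only guide arm with a Ct in all 15 samples of the normalized table, with the same values in the other table. Its ΔCt was 8.14, 7.15 and 9.98 in the 3 βTC1 samples and 9.98, 10.43 and 9.67 in untreated αTC1-6 at 24 h. With cytokines for 24 h it was 9.92, 8.99 and 11.06. In untreated αTC1-6 at 48 h it was 11.07, 11.05 and 11.61, and with cytokines for 48 h 11.47, 11.71 and 12.58. From the highest level to the lowest the conditions followed as βTC1, αTC1-6 with cytokines at 24 h, untreated at 24 h, untreated at 48 h and cytokines at 48 h. Neighbours in this order overlapped except the untreated αTC1-6 of 24 h and of 48 h.

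Mmu-miR-141, transcribed beside miR-200c, was read at later cycles, which may also reflect the efficiency and preamplification of each assay and gives no order of abundance. Its non-normalized ΔCt was 11.16, 14.34 and 13.98 in βTC1, 12.23, 14.47 and 10.17 in untreated αTC1-6 at 24 h and 14.29, 12.11 and 11.03 with cytokines. At 48 h it was 14.04, 13.90 and 10.84 without and 15.52, 15.26 and 11.76 with cytokines, in both tables. Replicate 3 was the highest of its condition in all 4 αTC1-6 conditions, and all 5 conditions overlapped with their neighbours in the order of means. The normalized table lists 4 of these wells as undetermined (βTC1 replicate 2, untreated replicates 2 and 3 and cytokine replicate 3 of 24 h) and gives cytokine replicate 2 of 24 h a ΔCt of 14.07, the single guide-arm well in which both tables held a Ct and differed by more than 0.01 cycle.

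Of the chromosome 4 cluster, mmu-miR-200a had a non-normalized ΔCt of 9.51, 8.37 and 8.67 in βTC1, of which only the first was kept in the normalized table. In untreated αTC1-6 at 24 h it was 5.05, 10.66 and 8.96, and with cytokines 9.90, 11.12 and 11.14, with no Ct in the normalized table. At 48 h, where both tables agree, it was 11.57, 10.28 and 13.60 without and 10.38, 7.52 and 10.52 with cytokines. The highest and the lowest miR-200a level of the series were thus both in untreated αTC1-6, replicate 1 of 24 h and replicate 3 of 48 h.

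Mmu-miR-200b had a ΔCt of 8.58, 5.54 and 11.43 in βTC1 in both tables. Untreated αTC1-6 of 24 h gave 9.97, 8.83 and 12.27 and cytokine-treated cells 7.40, 7.56 and 12.04 in the non-normalized table only. At 48 h the untreated samples gave 9.08, 11.06 and an undetermined well, the single guide-arm well without a Ct in either table, and the treated samples 9.07, 10.46 and 10.48. The βTC1 values span all but 2 of the αTC1-6 wells that had a Ct, replicates 3 of untreated and treated cells of 24 h.

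Mmu-miR-429 ran close to miR-200b. Its non-normalized ΔCt was 8.28, 7.19 and 9.30 in βTC1, the second being undetermined in the normalized table, and 8.99, 9.48 and 12.31 in untreated αTC1-6 at 24 h. Cytokine-treated cells gave 9.05, 8.24 and 11.61 at 24 h, again only in the non-normalized table. At 48 h it was 8.87, 10.39 and 16.41 without and 8.82, 9.44 and 11.46 with cytokines. Replicate 3 of the untreated 48 h samples, in which miR-200b had no Ct, thus also held the lowest miR-429 level and the lowest miR-200a level of its condition.

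Across the samples in which both had a non-normalized Ct, the ΔCt values of miR-200b and miR-429 had a Pearson correlation of 0.84 (14 samples), and of 0.86 over the 9 samples of 24 h. MiR-200a, which lies between them on the chromosome, correlated at -0.05 with miR-200b (14 samples) and at 0.51 with miR-429 (15 samples). MiR-200c and miR-141 correlated at 0.08 over 15 samples, whereas miR-200c correlated at 0.58 with miR-200b and at 0.54 with miR-429, with which it shares the seed. MiR-141 and miR-200a, which also share a seed, correlated at -0.19. These coefficients are descriptions of samples that share the miR-26a reference, the card and the culture.

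To compare the clusters within a sample, the mean level of miR-200c and miR-141 was subtracted from the mean level of miR-200a, miR-200b and miR-429, so that miR-26a cancels. Assays can differ in efficiency and preamplification, so only differences of this balance between samples can be read, not which cluster is the more abundant. From the non-normalized values this balance was 2.25 ± 1.43 log2 units in βTC1 (SD, n = 3), 1.55 ± 2.43 in untreated and 1.45 ± 1.94 in cytokine-treated αTC1-6 of 24 h, -0.51 ± 4.89 in untreated αTC1-6 of 48 h and 3.25 ± 1.66 with cytokines for 48 h. The balance was above 0 in 12 of 15 samples. The other 3 were replicates 3 of αTC1-6, at -1.26 in untreated and -0.55 in treated cells of 24 h and -6.13 in untreated cells of 48 h, the last resting on the undetermined miR-200b well. In the normalized table the balance was -7.41 ± 2.17 in untreated and -8.34 ± 2.58 in treated αTC1-6 of 24 h and -1.13 ± 1.75 in βTC1, values set by the wells listed as undetermined. Split by seed instead, the mean of miR-200b, miR-200c and miR-429 minus that of miR-200a and miR-141 was 2.61 ± 1.89 in βTC1 in the non-normalized table and between -0.03 and 2.06 in the means of the αTC1-6 conditions, with SDs of 1.79 to 3.96 that exceed each of them. In the normalized table it was 6.65 ± 4.14 in βTC1 and 2.50 ± 2.79 in untreated and 1.45 ± 1.92 in treated αTC1-6 of 24 h.

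**Figure D2:**
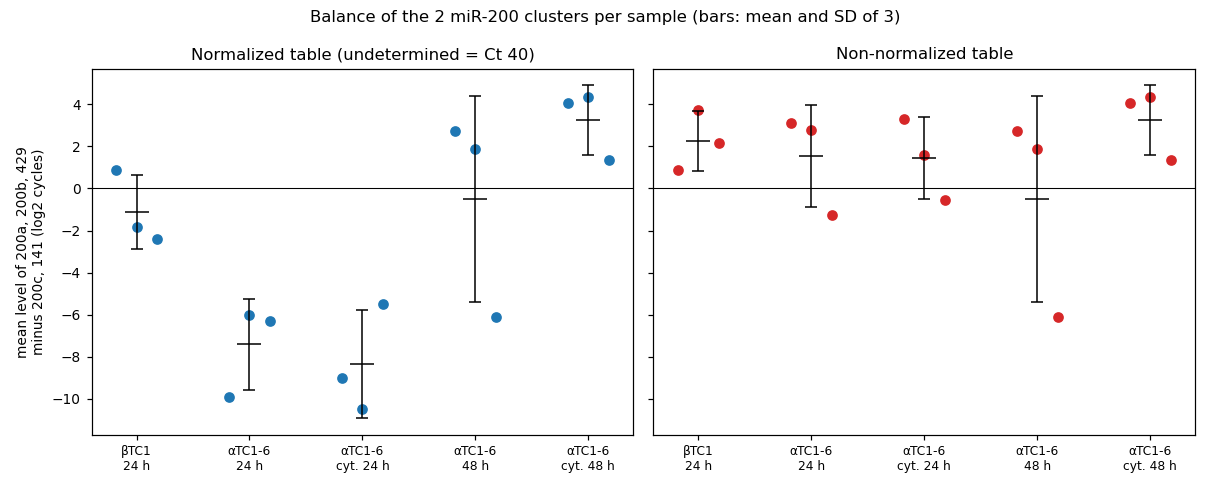
Mean level of miR-200a, miR-200b and miR-429 minus mean level of miR-200c and miR-141 in each sample (log2 cycles), from the normalized table on the left and the non-normalized table on the right. Points are samples and bars the mean and SD of 3. The αTC1-6 samples of 24 h lie between -10.51 and -5.49 on the left and between -1.26 and 3.32 on the right.

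The first comparison asked whether the family differs between the lines at steady state, at 24 h without treatment. In the normalized table a single member, miR-200b, was under the threshold, with a log2 difference of -13.41 ± 1.53 (SE, limma, Benjamini-Hochberg adjusted p = 0.000810). That value sets 3 βTC1 samples with a ΔCt of 5.54 to 11.43 against 3 αTC1-6 samples without a Ct. MiR-200b entered the fit through βTC1 alone, so that the size and the p both follow from the cycle of 40 given to αTC1-6 and are no test of its level. From the non-normalized values the difference was -1.84 ± 1.77 (adjusted p = 0.570) and the lines overlapped. When the untreated αTC1-6 of 48 h stood for the line it was -5.55 (adjusted p = 0.299). MiR-200b was thus the only 1 of 7 family assays under the threshold in the normalized table, against a background of 29.6% of 480 assays, or 17.7% counting only lower levels, and 47 of the assays called had no Ct in one of the lines. MiR-200a and miR-429 had too few wells with a Ct to be tested in the normalized table. Their non-normalized differences were 0.63 ± 1.53 (adjusted p = 0.834) and -2.01 ± 1.11 (adjusted p = 0.295).

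MiR-200c, which does not depend on the choice of table, had a log2 difference of -1.61 ± 0.82 (adjusted p = 0.176), with a 95% confidence interval of -3.64 to 0.43. Replicate 3 of βTC1, at 9.98, lay inside the αTC1-6 range, and the other 2 lay above it. Without that replicate the difference was -2.38 (adjusted p = 0.0285), and against the 48 h controls it was -2.82 (adjusted p = 0.0405), whereas without replicate 2 of βTC1 it was -0.97 (adjusted p = 0.389), so that the size and the call depend on the samples chosen. MiR-141 had a difference of -3.53 ± 3.84 (adjusted p = 0.530) in the normalized and of 0.87 ± 1.44 (adjusted p = 0.748) in the non-normalized table.

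Among the passenger arms, miR-141* gave the most even readings of the family. Its ΔCt, averaged over duplicate wells, was between 8.68 and 9.24 in βTC1, between 9.69 and 10.38 in untreated αTC1-6 of 24 h and between 8.95 and 9.63 with cytokines for 24 h. At 48 h it was between 8.97 and 11.28 without and between 10.14 and 11.52 with cytokines. The lines did not overlap at 24 h, and the log2 difference was -1.12 ± 0.44, with an adjusted p of 0.219 by limma. Of all 480 assays tested, 182 had an unadjusted p under 0.05 by limma, and how many separated the lines was not counted.

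The duplicate wells show how far the other passenger arms can be read. Both wells of miR-141* had a Ct in all 15 samples and differed by a median of 0.178 cycles, against 0.299 over all duplicated assays of card B. For miR-200a*, miR-200b* and miR-200c* both wells had a Ct in 11, 4 and 8 samples and then differed by a median of 1.61, 1.41 and 1.49 cycles, and in 4, 6 and 6 samples only 1 well had one. Of the 135 duplicated assays with both wells measured in at least 3 samples, 15, 22 and 20 had a larger median difference than these.

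**Figure D3:**
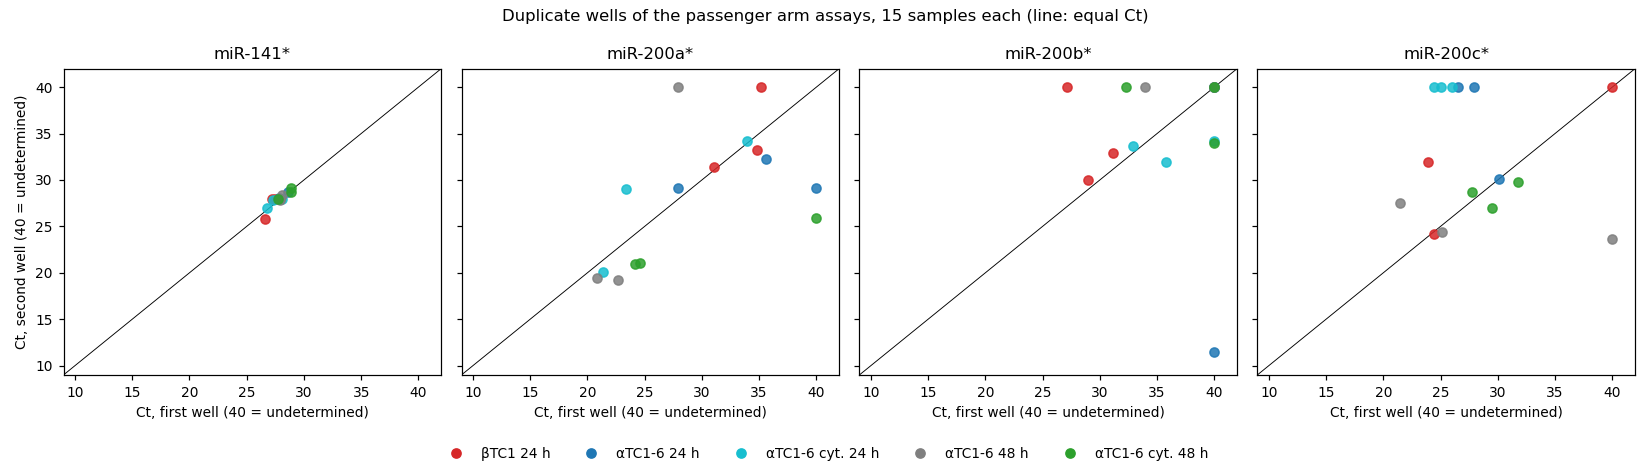
Ct of the second against the first duplicate well of each passenger arm assay, 15 samples per panel coloured by condition, with 40 for undetermined wells and a line at equal Ct. The miR-141* points lie on the line between 25.8 and 29.1 cycles, the other assays scatter, and 5 miR-200b* samples coincide at 40 in both wells.

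For miR-200b*, the strand opposite miR-200b, 5 of 6 βTC1 wells had a Ct (27.1 to 32.9) but 1 of 6 wells of untreated αTC1-6 at 24 h and 1 of 6 at 48 h. The single αTC1-6 well of 24 h crossed at a Ct of 11.5 while its duplicate was undetermined. With that well averaged in, the log2 difference between the lines was -3.69 ± 4.47 (adjusted p = 0.662). With wells below a Ct of 12 left out, an alternative chosen after seeing the data, it was -8.45 (adjusted p = 0.00268), and with the non-normalized table, which holds the first well only, it was -11.06 ± 1.25 (adjusted p = 0.00441). There it was the 1 member under the threshold of 9 tested, against a background of 101 of 539 (18.7%), but no αTC1-6 sample had a Ct. The same held with wells below a Ct of 12 left out, so that neither p is a test of the level. Against the untreated αTC1-6 of 48 h the difference was -7.54 (adjusted p = 0.00550). Only 1 of those 3 samples had a Ct, an average of 33.9 and an undetermined duplicate at 40. The size and p thus rest on the cycle of 40 and are no test of the level. With 1 replicate left out at 24 h the difference ranged from -8.90 (without αTC1-6 replicate 1, which holds the well at 11.5, adjusted p = 0.0221) to -1.05 (without αTC1-6 replicate 2). Without αTC1-6 replicate 1 no remaining αTC1-6 sample had a Ct, so that its p is no test of the level either. With undetermined values left out as missing, after the duplicates were averaged, the difference was 6.73, in the opposite direction. Only replicate 1 then stood for αTC1-6, at a Ct of 25.7, the average of the well at 11.5 and its undetermined duplicate at 40. In cytokine-treated αTC1-6 5 of 6 wells had a Ct at 24 h (32.0 to 35.8) and 2 of 6 at 48 h. MiR-200a* and miR-200c* did not pass the test in either table.

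The second question was whether the cytokines changed the family in αTC1-6. At 24 h none of 6 family assays tested was called, against a background of 1 of 445 (0.225%) over all assays, or 0 with the replicate number as a block. MiR-200c differed by 0.04 ± 0.62 (adjusted p = 0.987), with a 95% confidence interval of -1.52 to 1.59. For miR-141* the treated and untreated ranges did not overlap, and the log2 difference was 0.84 ± 0.38, with an adjusted p of 0.806. It was higher in the treated sample of all 3 pairs, by 0.52, 0.75 and 1.25, and with the replicate number as a block the adjusted p was 0.382. How many of all assays separated in this way, or moved one way in all 3 pairs, was not counted. Of the non-normalized values, where 8 were tested and none called against a background of 0%, miR-200a differed by -2.50 ± 1.53, miR-200b by 1.36 ± 1.63 and miR-429 by 0.63 ± 1.31 (each adjusted p = 0.989). Within the pairs of 24 h in these values, miR-200a moved by -4.86, -0.46 and -2.18, the opposite way to 48 h. MiR-200b moved by 2.57, 1.27 and 0.23, whereas miR-429, miR-200c and miR-141 each moved both ways.

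At 48 h all 9 assays were tested and none was called, against 3 of 534 (0.562%), or 0 with the block. None was called from the non-normalized values either, against 3 of 529 (0.567%). The members of the chromosome 4 cluster had log2 differences of 2.34 ± 1.24 for miR-200a, 4.06 ± 3.61 for miR-200b and 1.98 ± 2.18 for miR-429 (adjusted p = 0.684, 0.814 and 0.829). Those of the chromosome 6 cluster were -0.68 ± 0.42 for miR-200c and -1.25 ± 1.44 for miR-141 (adjusted p = 0.721 and 0.829), of the opposite sign. These 5 intervals include 0, and treated and untreated samples overlapped for each guide arm. Within the pairs of equal replicate number each guide arm moved one way in all 3 pairs. No passenger arm did so, miR-141* for example moving by -1.34, 1.14 and -1.58. The share of all assays that moved one way in all pairs was not counted, so that this pattern cannot be called particular to the guide arms. The treated sample was higher by 1.19, 2.76 and 3.08 for miR-200a, by 0.01, 0.60 and 11.57 for miR-200b, the last against the undetermined well, and by 0.042, 0.95 and 4.95 for miR-429. For miR-141 the values were -1.48, -1.36 and -0.92, and for miR-200c -0.40, -0.66 and -0.97. With the replicate number as a block, the SE of miR-200a was 0.51 (95% confidence interval 0.68 to 4.004, adjusted p = 0.245), that of miR-141 0.22 (-1.96 to -0.54, adjusted p = 0.231) and that of miR-200c 0.22 (-1.38 to 0.025, adjusted p = 0.289). The intervals of miR-200a and miR-141 thus left out 0 in this fit, but neither passed the adjusted threshold. Over all assays, 121 had an unadjusted p under 0.05 in the same limma fit, so that such intervals were not particular to the family. Replicate 3 of the untreated samples weighed on the first group: without it the difference of miR-429 was -0.28, and that of miR-200b was 0.07. Centred on the sample median in place of miR-26a, the difference of miR-200c was 0.0015 and that of miR-141* 0.084, against a median over all assays of -0.51 with miR-26a.

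The effects at 48 h and 24 h were also compared by their difference. None of 8 family assays was called, against 1 of 477 (0.210%). The largest in the non-normalized table among the guide arms was that of miR-200a, at 4.84 ± 2.07 (adjusted p = 0.996).

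Another comparison, of untreated αTC1-6 at 48 h and at 24 h, gave opposite signs in the tables. In the normalized table the log2 difference was 10.11 ± 0.96 for miR-200a (adjusted p = 0.00173) and 10.04 ± 2.04 for miR-429 (adjusted p = 0.0398), which are 2 of 7 family assays tested, against 29 of 489 (5.93%), or 27 (5.52%) counting only higher levels. Neither had a Ct in any untreated sample of 24 h in that table, and 26 of the 29 assays had none at one of the times. Both thus entered the fit through the samples of 48 h alone, and these p-values are no test of a level. In the non-normalized table both values turned, to -3.59 ± 1.72 and -1.63 ± 2.25 (each adjusted p = 0.973), and 0 of 8 family assays were called, against 2 of 520 (0.385%). MiR-200c had a log2 difference of -1.22 ± 0.37, with an adjusted p of 0.201 in the normalized and 0.973 in the non-normalized table. Its 3 samples of 48 h were all below its 3 of 24 h. The value was negative under all alternatives that were run, from -1.42 to -0.82, but these reuse the same samples. How many of all assays separated the times in this way was not counted. The call of miR-429 was also lost when any 1 of the 3 samples of 24 h was left out (adjusted p = 0.109 to 0.157), whereas that of miR-200a held in each of these (0.00756 to 0.0143). With any 1 of the 3 samples of 48 h left out, neither miRNA kept enough wells with a Ct to be tested, and 0 assays were called over both cards by limma, with 13 to 20 at an unadjusted p under 0.05.

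**Figure D4:**
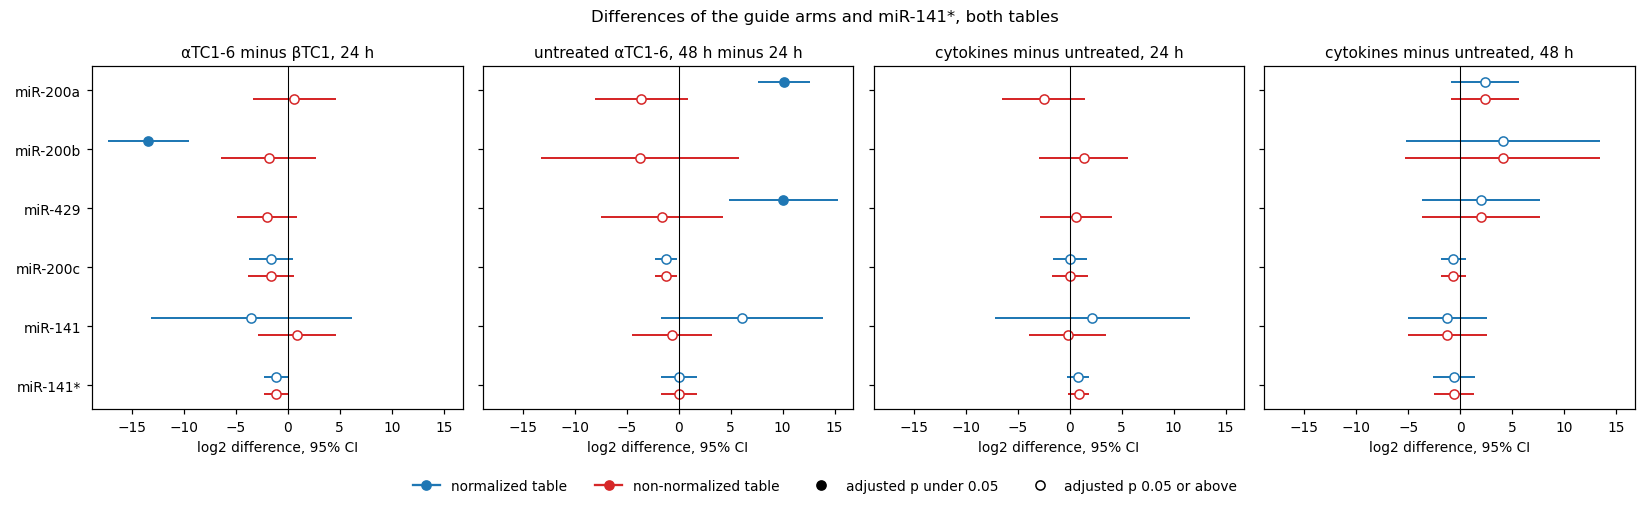
Log2 differences of the guide arms and miR-141* with 95% confidence intervals in 4 comparisons, blue for the normalized and red for the non-normalized table, filled where the adjusted p was under 0.05. Filled points appear for miR-200b (-13.41) between the lines and for miR-200a (10.11) and miR-429 (10.04) between times, in blue only, and no bar is drawn where an assay was not tested.

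Other miRNAs known from epithelia were set beside the family. The list held miR-205, miR-203, miR-183, miR-96, miR-182, miR-192, miR-194 and miR-215, with 9 assays in all. Of 8 tested between the lines, 4 were lower in αTC1-6 and none was higher, with a median log2 difference of -2.60 against -0.52 over all assays tested, of which 17.7% were called lower. MiR-203, an epithelial differentiation miRNA, was lower by -3.71 (adjusted p = 0.00282), miR-183 by -3.52 (adjusted p = 0.0134), miR-194 by -3.42 (adjusted p = 0.00554) and miR-96 by -2.37 (adjusted p = 0.0391). From the non-normalized values, 4 were again lower, with miR-192 (-3.15, adjusted p = 0.0243) in place of miR-96 (adjusted p = 0.0739). Of all assays there, 10.2% were called lower and 18.7% in either direction. MiR-203, miR-183 and miR-194 passed the test in both tables. In the family, miR-200b, miR-200c and miR-429 had negative and miR-200a and miR-141 positive non-normalized differences, none past the threshold.

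Of a list of 13 assays of mesenchymal miRNAs, 9 were tested between the lines, and 2 were lower in αTC1-6, against the same 17.7% of all assays, with a median of 0.39. The 2 were miR-10b, at -16.03 (adjusted p = 1.53e-05), which had no Ct in untreated αTC1-6 of 24 h in either table, and miR-145, at -1.90 (adjusted p = 0.0271). MiR-10b thus entered the fit through βTC1 alone, and its p is no test of a level. From the non-normalized values 1 of 11 was lower, miR-10b, against 10.2% of all assays called lower. MiR-143 showed the same turn between tables as miR-200a and miR-429: its difference of 48 h and 24 h was 10.02 (adjusted p = 0.0101) in the normalized table, where it too had no Ct in untreated αTC1-6 of 24 h, and -0.82 (adjusted p = 0.973) in the other. The call of miR-143 is likewise no test of a level. Neither list had a member called after cytokines in either table. MiR-203 of the epithelial list had a log2 difference of 2.15 ± 0.52 at 24 h (SE, limma, adjusted p = 0.648). At 48 h its difference was 2.54 ± 0.50 (adjusted p = 0.207). From the non-normalized values both differences were the same (adjusted p = 0.680 and 0.185). The paper, by contrast, names miR-203 among the miRNAs significantly changed by the longer cytokine treatment. Why the calls differ was not tested.

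The assays whose level followed each cluster most closely were sought among 275 outside the family with a Ct in all 15 samples of the normalized table. For the chromosome 4 cluster these were miR-125b*, miR-466c-5p and miR-193b, with Pearson correlations of 0.54, 0.49 and 0.47 over the 15 samples, in 6 of which all 3 wells of the cluster are at the undetermined value. Centred on the sample median, miR-145 came first, at 0.63, and miR-466c-5p was no longer among the closest 3. For the chromosome 6 cluster they were miR-125b*, miR-653 and miR-98, at 0.74, 0.64 and 0.63, with miR-141 at the undetermined value in 4 of the 15 samples. The closest assays were picked from 275 for each cluster, and what chance alone would give was not tested. In the non-normalized table, with 358 assays, the closest to the chromosome 4 cluster was miR-465a-5p at 0.84 and to the chromosome 6 cluster miR-706 at 0.74, so that miR-98 (at 0.73 in the latter, after 2 others) was the only assay named for a cluster from both tables.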

How the data were processed

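MiRNA levels were measured by TaqMan Rodent miRNA A and B cards after reverse transcription and preamplification. The authors deposited 3 tables. The normalized table, as deposited by the authors, holds log2 values (ΔCt to miR-26a) and their relative quantities. The other unit is the Ct of the non-normalized table, deposited by the authors in cycles, which repeats the first well of each duplicated family assay in both wells. The remaining table holds the authors' own fold changes of test over control samples and was not used. The methods describe several reference genes, whereas the ΔCt of miR-26a is 0 in each sample.

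Ct values were recovered by adding the Ct of miR-26a, undetermined wells were set to 40 (within 0.001 cycle), blank wells were left out and duplicate wells averaged. No read depth applies, and the precision rests on 3 samples per condition. The replicates are described as independent experiments. Comparisons were fitted over all assays with a Ct under 40 in at least 50% of the samples, with limma (version 3.58.1, R 4.3.3), two-sided, on the samples compared (12 αTC1-6 samples for the difference of effects), with Benjamini-Hochberg adjustment within each card and a threshold of 0.05. The fits were tested on simulated data. Summaries used Python 3.11.15 with numpy 2.4.6 and pandas 2.3.3. Family assays, the 2 lists, the reference miRNA and the 3 assays closest to each cluster were named by rule. Members, lists, markers and tests were chosen with earlier results of these data known.

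Same-numbered treated and untreated αTC1-6 samples deviated together over 278 assays in every pair, with correlations of 0.276 to 0.476 at 24 h and of 0.259 to 0.443 at 48 h, so that the numbers were taken to pair them. Alternatives covered the scaling, the filter, undetermined wells, the table, the adjustment, the model and each replicate left out. Blood, endothelial and fibroblast markers were also read: the defining miR-142-3p had a ΔCt of 11.5 or more in every sample, and the summed level of the endothelial miR-126 assays was -8.38 to -6.12 in αTC1-6 and -4.65 to -4.00 in βTC1 on the log2 scale. The 8 fibroblast-type assays summed to -11.17 to 12.75, the highest values coming from early Ct in samples of 48 h.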

Additional observations from a re-analysis of the deposited data

How the results depend on the processing

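The alternatives that left out wells with a Ct under 12, centred the non-normalized table on the sample median, or sought the neighbours of the clusters in the non-normalized table were chosen after seeing the data. The last gave no value for miR-125b*, which lacks a Ct in part of the samples there. Of the family's values under alternatives, 696 kept direction and side of the threshold, 57 changed sign, 11 lost a call and 9 gained one. The cause of these changes was not tested.

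Between the lines, 142 assays were called, but 81 when a Ct was required in every sample and 94 to 110 when 1 replicate was left out. The log2 difference of miR-141 turned to 0.34 with undetermined wells as missing, 0.87 in the non-normalized table, 1.00 in that table centred and 2.54 against the 48 h controls. That of miR-200b* turned to 6.73 with undetermined wells as missing, a setting applied after the duplicate wells were averaged. MiR-200a* turned to -0.95 with the first duplicate well or the non-normalized table and to -0.82 with the latter centred. MiR-200c* turned to 1.12, 1.12 and 1.24 under the same settings, to 3.47 against the 48 h controls, and ranged from -6.40 to 1.62 with 1 replicate left out.

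For cytokines at 24 h, 1 assay was called by limma. The count was 0 with a Ct in every sample (21 at an unadjusted p under 0.05), undetermined wells as missing (25), Ct above 35 set to 35 (22), the non-normalized table (25, or 30 when centred), a trended variance (19) or the replicate block (47), 2 with all 15 samples in the fit, and 0 to 2 with 1 replicate left out. MiR-200c turned to -0.16 without normalization and ranged from -0.47 to 0.57 with 1 replicate left out. MiR-200c* turned to -0.15 without normalization and -0.089 with U6 and snoRNA as reference, with a range of -0.63 to 1.02. MiR-141 turned to -1.94 with undetermined wells as missing and -0.19 in the non-normalized table. MiR-200b* turned to -9.74 with undetermined wells as missing, when only the averaged Ct of 25.7 of replicate 1 was left for the untreated cells. With Ct above 35 set to 35 it turned to -1.95, and its range with 1 replicate left out was -1.96 to 5.89.

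For cytokines at 48 h, 3 assays were called, 1 with undetermined wells as missing, 5 with all 15 samples in the fit, 0 with the replicate block (121 at an unadjusted p under 0.05) and 0 to 5 with 1 replicate left out. MiR-200c was at 0.0015 and miR-141* at 0.084 when centred, at 0.037 and 0.10 in the non-normalized table centred, and miR-141* at 0.074 with U6 and snoRNA. MiR-200b* was at -0.087 with Ct above 35 set to 35. With 1 replicate left out miR-429 ranged from -0.28 to 3.49 and miR-200a* from -6.15 to 2.33.

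Between untreated αTC1-6 of 48 h and 24 h, 29 assays were called, but 1 with a Ct in every sample, 2 with undetermined wells as missing, 2 in the non-normalized table, 1 in that table centred, and 0 to 30 with 1 replicate left out, 0 whenever a sample of 48 h was missing. MiR-200a turned to -3.59 in the non-normalized table and -3.28 when it was centred, miR-429 to -1.63 and -1.31, and miR-141 to -0.63 and -0.32, with -0.69 for undetermined wells as missing. MiR-200c* turned to -0.80 with the first duplicate well and in the non-normalized table, and to -0.48 when centred. MiR-141* ranged from -0.52 to 0.64 with 1 replicate left out. MiR-141 was called without replicate 1 of 24 h (9.46, adjusted p = 0.0129). Neither remaining untreated sample of 24 h had a Ct there, so that this p is no test of a level. The call of miR-429 was lost with no filter (adjusted p = 0.0569), Ct above 35 set to 35 (0.450), adjustment over both cards (0.0613), all 15 samples in the fit (0.0535) and the replicate block (0.0889).

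For the difference of the cytokine effects, 1 assay was called, 2 when centred, 2 without normalization, 3 with no filter, and 0 with a Ct in every sample (18 at an unadjusted p under 0.05), undetermined wells as missing (27), Ct above 35 set to 35 (21) or the non-normalized table (17, or 16 when centred), and 1 to 4 with 1 replicate left out. MiR-141 turned to 0.69 with undetermined wells as missing. MiR-200b* turned to -4.24 without wells under a Ct of 12 and ranged from -4.70 to 3.15.

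The cluster balance moved to 1.55 in untreated and 1.45 in treated αTC1-6 of 24 h and to 2.25 in βTC1 in the non-normalized table, and with Ct above 35 set to 35 to -4.08 and -4.17 in the αTC1-6 of 24 h. The seed balance by medians of members was -1.46 in untreated and -2.47 in treated αTC1-6 of 24 h.

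With the replicate number as a block, 115 assays were called between the lines, 23 between untreated times and 1 for the difference of effects, and no family call changed apart from that of miR-429. In the first of these the samples share only a number, with correlations of 0.064 to 0.095, and in the second of -0.045 to 0.238. With 3 samples a group, wells listed as undetermined set many of these values, and where the SE exceeded 1 cycle differences of a few cycles were not detectable.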

Other observations

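In the non-normalized table the decimal part of the Ct was 0.9 or above in 1913 of 4904 card A readings (39.0%), against 10% if the decimals were spread evenly. Among the guide arms of the family the same held for 18 of 74 readings (24.3%).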
